A study of Mus musculus with 24 samples.

Results

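Noradrenaline, adrenaline and dopamine reach the hippocampus mainly through fibers from the brainstem and midbrain and act on G protein-coupled receptors. The α1-adrenergic receptors couple to Gq and phospholipase C, the α2-adrenergic receptors to Gi/o proteins that lower cAMP, and the β-adrenergic receptors to Gs, which raises cAMP. Among the dopamine receptors, the D1-like receptors couple to Gs and Golf and the D2-like receptors to Gi/o. In the hippocampus these receptors are known for their roles in arousal, novelty and the stabilization of synaptic plasticity and memory.

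The 9 catecholamine receptor genes examined here were Drd1 and Drd5 (D1-like), Drd2 (D2-like), Adra1a, Adra1b and Adra1d (α1), Adra2a and Adra2c (α2) and Adrb1 (β1). They were chosen by name, as the rows of the count table whose Ensembl identifiers belong to these 3 dopamine and 6 adrenergic receptor genes, and are 9 of the 55471 genes in the table. All 9 passed the filter on low counts in every fit. Their levels come from RNA-seq of the whole hippocampus of 12 female C57BL/6 mice (C57BL/6J in the study's methods) aged between 3 and 6 months, 3 in each of 4 groups, and each hippocampus was sequenced on its own in 2 runs that the authors merged. The 4 groups were control mice in standard cages (SC), CBP-ifKOs in SC, control mice kept for about a month in environmental enrichment (EE), and CBP-ifKOs in EE. CBP-ifKOs are inducible forebrain knockouts of Crebbp, the gene of the transcriptional coactivator and lysine acetyltransferase CBP. They carried floxed Crebbp and the Camk2a-creERT2 transgene, which is active in excitatory neurons of the forebrain, so that interneurons, glia and the cells of origin of the catecholamine fibers are not targeted. The controls were littermates without the transgene, and both genotypes received tamoxifen in 5 intragastric administrations of a solution of 20 mg/mL in corn oil. The data address how the loss of CBP and the housing relate to the transcripts of these receptors.

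The control libraries held between 26874015 and 27971488 counts and the CBP-ifKO libraries between 28582210 and 37448388. All 148570 nonzero counts of CBP-ifKOs were even, whereas 86334 of the 158233 of control mice were odd, a difference in processing that cannot be told apart from genotype and that was examined by halving the CBP-ifKO counts. Crebbp lay between 69.6 and 81.9 CPM (counts relative to TMM-scaled library sizes) in control mice and between 44.5 and 51.6 CPM in CBP-ifKOs. Esr1, whose human counterpart supplies the ligand-binding part of creERT2, lay between 3.47 and 5.82 CPM in control mice and between 67.0 and 81.7 CPM in CBP-ifKOs, so both genes followed the labels. Control replicate 1 in EE held 1129 CPM of the choroid plexus transcript Ttr, against 4.06 to 32.3 CPM in the other 11 mice. Control replicate 2 of both housings had the lowest Drd5 of its group, and calls of receptors and their signaling partners that change without these libraries are given with and without them. Where nothing else is said, a gene is called changed when its adjusted p-value is below 0.05 (edgeR quasi-likelihood test, Benjamini-Hochberg adjustment over all genes tested), and values after ± are SDs with n = 3 mice.

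The receptor genes lie on 7 chromosomes, and the positions are those of GRCm38. The α1 genes are Adra1a (ENSMUSG00000045875, chromosome 14, 66635251 to 66771168), Adra1b (ENSMUSG00000050541, chromosome 11, 43774606 to 43901210) and Adra1d (ENSMUSG00000027335, chromosome 2, 131545850 to 131562283). The α2 genes are Adra2a (ENSMUSG00000033717, chromosome 19, 54044151 to 54048982) and Adra2c (ENSMUSG00000045318, chromosome 5, 35278319 to 35281763), and Adrb1 (ENSMUSG00000035283) spans 56722199 to 56733113 of chromosome 19. The dopamine receptor genes are Drd1 (ENSMUSG00000021478, chromosome 13, 54051183 to 54055705), Drd2 (ENSMUSG00000032259, chromosome 9, 49340627 to 49408177) and Drd5 (ENSMUSG00000039358, chromosome 5, 38319367 to 38322518). All are protein-coding genes, and the counts of a gene cover its exons with their untranslated parts. Drd5 shares 1531 exonic bases with Gm26560 and Adra1d shares 147 with Gm14285, each on the opposite strand. Whether the counting used strand is not stated in the sources used here, so reads in these stretches cannot be assigned with certainty. The level of Gm26560 lay between 0.207 and 0.762 CPM and that of Gm14285 between 0.658 and 1.31 CPM in the 12 mice.

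CBP takes its name from binding to CREB, a factor that recognizes the cAMP response element (CRE) TGACGTCA or its core TGACG. RefSeq promoter windows on GRCm38.p6, from 250 bases before to 50 bases after an annotated start, were matched for 7 of the 9 receptors, with 2 starts each for Adra1b and Drd1 and none for Adra1a and Adra1d. None of the 9 windows held the full CRE, which was found on either strand in 1.79% of the 32851 promoter windows. The core, which is also part of every full CRE, was found in 2 of the 9 receptor windows, those of Adra2a and Adrb1, and in 20.8% of all windows. The 3 sequences below belong to receptors that were lower in CBP-ifKOs, and are printed on the sense strand with the core in capitals, 69 bases before the RefSeq start of Adra2a and 90 bases before that of Adrb1. The stretch of Adra2a is at chr19:54045178-54045207, inside the gene as GENCODE annotates it, and the sequences of Adrb1 (chr19:56721867-56722116, plus strand) and of the upstream start of Adra1b (chr11:43901238-43901487, minus strand) are the 250 bases before the start.
Adra2a, 30 bases around the core: ccacgtgggggcTGACGccggctgctcggc
Adrb1, with 1 core: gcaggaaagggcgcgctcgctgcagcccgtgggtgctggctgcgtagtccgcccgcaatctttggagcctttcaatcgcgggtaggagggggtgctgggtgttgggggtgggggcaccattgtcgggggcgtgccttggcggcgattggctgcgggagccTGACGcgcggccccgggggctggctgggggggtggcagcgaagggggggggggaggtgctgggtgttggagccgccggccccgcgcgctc
Adra1b, without the core: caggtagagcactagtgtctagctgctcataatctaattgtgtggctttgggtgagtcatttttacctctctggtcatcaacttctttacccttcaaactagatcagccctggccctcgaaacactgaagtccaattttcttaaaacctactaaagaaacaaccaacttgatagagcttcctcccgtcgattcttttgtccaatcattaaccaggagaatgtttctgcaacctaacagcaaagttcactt
A match of these letters describes the sequence and does not show binding.

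The receptors differed widely in abundance. Per transcript length (RPKM, computed from the counts and the lengths in the table), Adra1d was the highest in all 4 groups and Adra1a the lowest. In control mice in SC, the mean levels in RPKM were 18.6 ± 1.81 for Adra1d, 6.06 ± 1.07 for Adra2c, 4.46 ± 0.581 for Adrb1 and 4.31 ± 0.730 for Drd5. Next came Adra2a with 2.53 ± 0.279, Drd1 with 1.62 ± 0.124, Drd2 with 1.24 ± 0.0704, Adra1b with 1.003 ± 0.0920 and Adra1a with 0.374 ± 0.0866 RPKM. The ranges of 3 mice overlapped between Adra2c and Adrb1 and between Adrb1 and Drd5 in this group, and the other neighbors in this order did not overlap. Over the 12 mice Adra1d lay between 15.5 and 20.9 RPKM, above 84.8% of the genes tested in the 12-mouse fit, whereas Adra1a lay between 0.301 and 0.472 RPKM, above 14.4% of them. The D1-like receptor with the higher level was Drd5, which exceeded Drd1 in every mouse group, and Drd2 was the lowest of the 3 dopamine receptors. In CBP-ifKOs the mean of Drd5 was above that of Adrb1 in SC (4.64 ± 0.429 against 3.93 ± 0.265 RPKM, without overlap) and above that of Adra2c in EE (5.21 ± 0.736 against 4.66 ± 0.713 RPKM, with overlap). The order of Drd5 and Adrb1 in controls depended on control replicate 2, which was set apart for its low Drd5. Leaving it out therefore had to raise the Drd5 mean of controls. Without it, the mean of Drd5 was above that of Adrb1 in controls too, at 4.73 against 4.62 RPKM in SC (with overlap) and 4.64 against 4.55 RPKM in EE (n = 2 mice each).

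**Figure D1:**
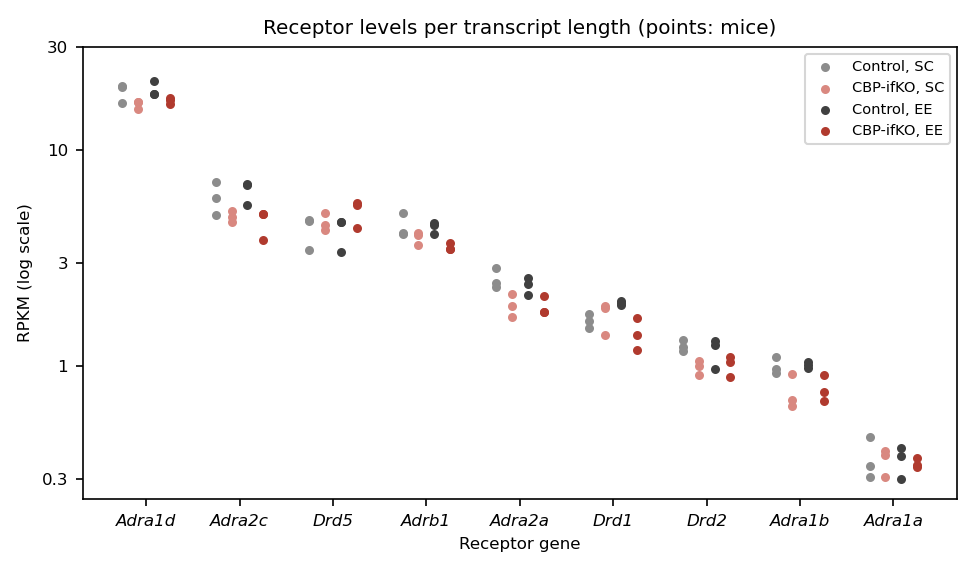
Levels of the 9 receptor genes in RPKM on a log scale, with 1 point per mouse and colors for the 4 groups. Adra1d sits near 20 and Adra1a below 0.5 RPKM in every mouse, and the remaining receptors lie between them.

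Averaged over the housings, transcripts of 5 of the 9 receptors were lower in CBP-ifKOs and none was higher. All 5 are adrenergic: Adra2a, Adra2c, Adrb1, Adra1d and Adra1b. None of the 3 dopamine receptors was called in this comparison, and neither was Adra1a. The split is one of calls and not of size. The log2 fold changes were -0.27 for Drd2, -0.19 for Drd1 and 0.20 for Drd5, against -0.18 for the called Adra1d. Dopamine and adrenergic receptors were not tested against each other. Among all 18251 genes tested, 16.9% were called in this comparison, 10.3% as lower in CBP-ifKOs. The median log2 fold change of the 9 receptors was -0.24 and that of all genes 0.00289. Each difference was modest, with the called receptors between 11.8% and 23.6% below control levels. In bulk tissue, fewer cells of a type and less RNA per cell cannot be told apart.

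Adra2a encodes the α2A receptor, an autoreceptor of noradrenergic terminals that neurons also carry postsynaptically. In SC its level was 11.2, 11.7 and 13.8 CPM in control mice and 9.21, 8.17 and 10.4 CPM in CBP-ifKOs. In EE it was 12.3, 11.6 and 10.3 CPM in controls and 10.2, 8.59 and 8.58 CPM in CBP-ifKOs. The genotypes did not overlap within either housing, although the highest CBP-ifKO in SC lay just above the lowest control in EE. The log2 fold change averaged over housing was -0.36 (SE 0.0850, adjusted p = 0.00842 with edgeR), or 22.1% lower. The call held in all 21 alternatives, with adjusted p between 4.90e-04 and 0.0308.

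Adra2c encodes the α2C receptor, the second most abundant of the 9 in control mice. In SC it stood at 24.6, 17.3 and 20.7 CPM in control mice and at 16.0, 18.1 and 16.9 CPM in CBP-ifKOs. In EE the controls held 24.0, 19.1 and 23.8 CPM and the CBP-ifKOs 13.2, 17.5 and 17.5 CPM. The genotypes overlapped in SC, where control replicate 2 was below 1 of the CBP-ifKOs, and did not overlap in EE. Averaged over housing, Adra2c fell by 0.39 on the log2 scale (SE 0.0936, adjusted p = 0.00956 with edgeR), which is 23.6% lower. This call also held in all 21 alternatives, with adjusted p between 3.15e-07 and 0.0284.

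Adrb1 encodes the β1 receptor, which couples to Gs. Its level in SC was 13.9, 14.0 and 17.4 CPM in controls and 12.3, 13.6 and 13.9 CPM in CBP-ifKOs, where the groups overlapped narrowly. Enriched controls had 15.6, 13.8 and 15.2 CPM and enriched CBP-ifKOs 11.8, 12.5 and 11.7 CPM, with no overlap. The averaged log2 fold change was -0.24 (SE 0.0699, adjusted p = 0.0247 with edgeR), or 15.6% lower. The call was lost without control replicate 3 in SC (adjusted p = 0.0844), CBP-ifKO replicate 1 in SC (0.0648), control replicate 1 in EE (0.0622), control replicate 3 in EE (0.0560) or CBP-ifKO replicate 3 in EE (0.0542). It was also lost when the CBP-ifKO counts were halved and all libraries thinned to the smallest (adjusted p = 0.0727), an alternative chosen after seeing the data, and the direction stayed the same in all 21 alternatives.

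Adra1d encodes the α1D receptor, which had the highest level per length of the 9 genes. In SC, Adra1d stood at 37.5, 31.3 and 37.1 CPM in control mice and at 29.5, 31.6 and 31.6 CPM in CBP-ifKOs. In EE it reached 34.5, 34.5 and 39.7 CPM in controls and 32.5, 33.1 and 31.1 CPM in CBP-ifKOs. Control replicate 2 in SC lay within the range of the CBP-ifKOs, and the EE groups did not overlap. Its averaged log2 fold change of -0.18 (SE 0.0551, adjusted p = 0.0335 with edgeR) was the smallest among the called receptors, an 11.8% difference. Leaving out any of 8 mice removed the call, with adjusted p between 0.0532 (without CBP-ifKO replicate 3 in SC) and 0.106 (without control replicate 3 in SC). The other 6 of these mice were control replicate 1 in SC (0.0844), CBP-ifKO replicates 1 and 2 in SC (0.0814 and 0.0535), control replicate 3 in EE (0.0932) and CBP-ifKO replicates 1 and 3 in EE (0.0553 and 0.0787).

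Adra1b encodes the α1B receptor and had few counts, between 68 and 120 per library. In SC its level was 3.30, 3.14 and 3.74 CPM in controls against 3.11, 2.35 and 2.22 CPM in CBP-ifKOs. In EE it was 3.31, 3.55 and 3.44 CPM in controls against 3.10, 2.56 and 2.35 CPM in CBP-ifKOs. Adra1b was the only 1 of the 9 receptors whose 6 CBP-ifKOs all lay below all 6 controls, a pattern shown by 5.35% of the genes tested, and replicate 1 was the highest CBP-ifKO in both housings. The averaged log2 fold change was -0.38 (SE 0.121, adjusted p = 0.0410 with edgeR), or 23.3% lower. The call was lost without control replicate 1 in SC (adjusted p = 0.0659), control replicate 3 in SC (0.113), CBP-ifKO replicates 2 or 3 in SC (0.0870 and 0.0990), control replicates 1, 2 or 3 in EE (0.0589, 0.0666 and 0.0751) and CBP-ifKO replicates 2 or 3 in EE (0.0789 and 0.0932). It was also lost without the filter on low counts (0.0732) and without control replicate 2 of both housings (0.0634).

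**Figure D2:**
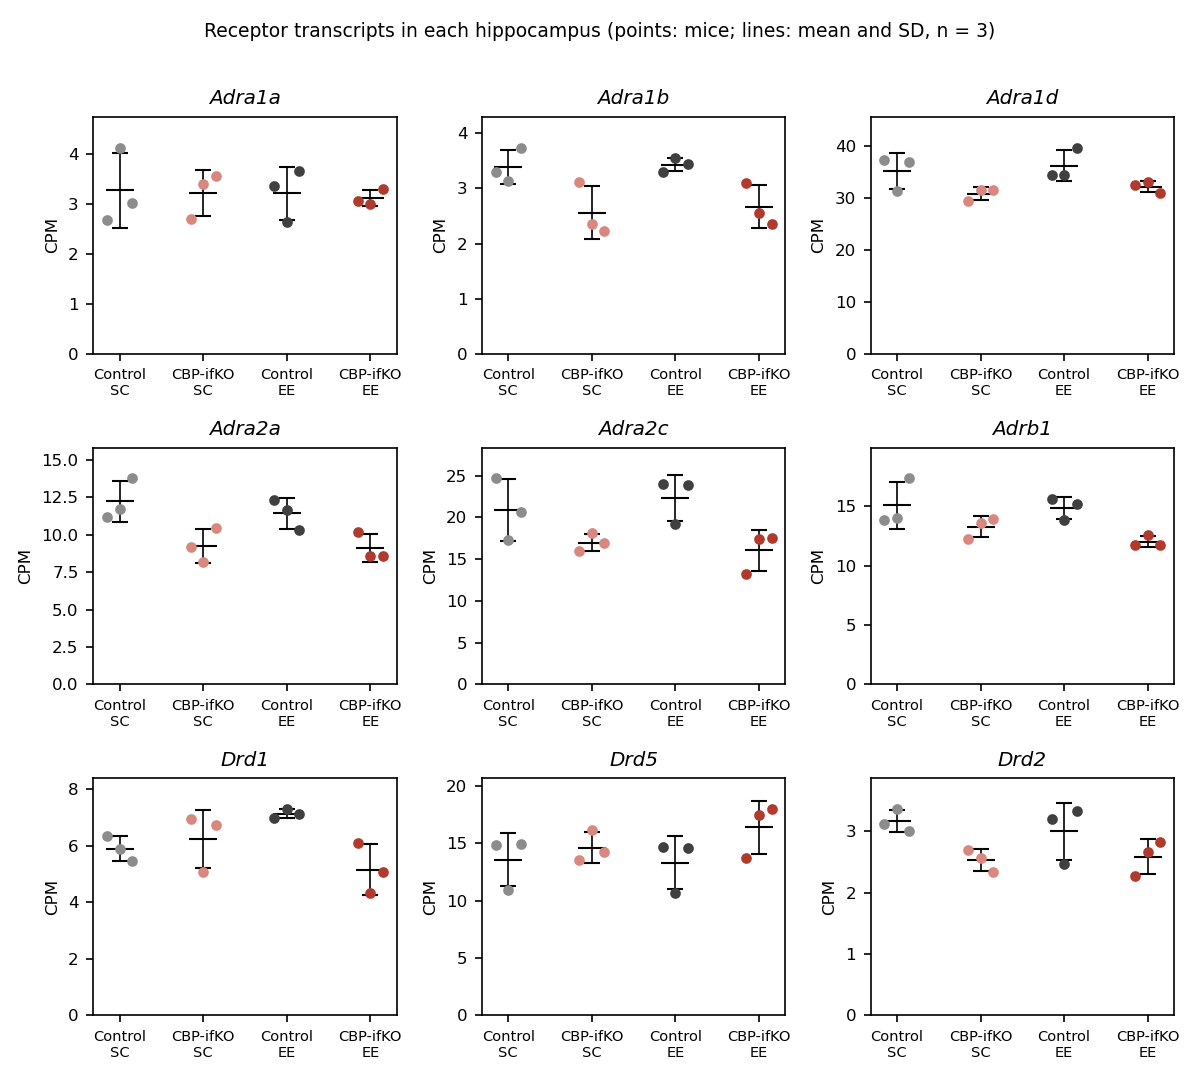
Level of each receptor in CPM (linear axis from 0) in the 4 groups of 3 mice, with 1 point per mouse and lines for the mean and SD. The 5 called adrenergic receptors sit lower in CBP-ifKOs of both housings, and the 6 points of Adra1b in CBP-ifKOs are all below those in controls.

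The 4 remaining receptors were not called. For Adra1a, the α1A receptor gene, the values were 2.67, 4.12 and 3.01 CPM in SC controls, 2.69, 3.39 and 3.55 CPM in SC CBP-ifKOs, 3.34, 2.63 and 3.66 CPM in EE controls and 3.05, 2.99 and 3.29 CPM in EE CBP-ifKOs. The groups overlapped throughout, and its averaged log2 fold change was -0.04 (SE 0.133, adjusted p = 0.893 with edgeR). For Drd2, the D2 receptor gene, SC controls had 3.12, 3.36 and 3.01 CPM and SC CBP-ifKOs 2.69, 2.56 and 2.33 CPM, without overlap. In EE, Drd2 stood at 3.20, 2.47 and 3.33 CPM in controls and 2.27, 2.67 and 2.82 CPM in CBP-ifKOs, where the groups overlapped. The averaged log2 fold change of Drd2 was -0.27 (SE 0.117, adjusted p = 0.132 with edgeR), at 64 to 100 counts per library.

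Drd5 was the only receptor with a positive averaged value, which did not pass the test. In SC it was at 14.9, 10.9 and 14.9 CPM in controls and at 13.5, 16.1 and 14.2 CPM in CBP-ifKOs. In EE the controls had 14.7, 10.6 and 14.6 CPM and the CBP-ifKOs 13.7, 17.5 and 18.0 CPM. The low control in each housing was replicate 2, and the groups overlapped in both housings. The averaged log2 fold change was 0.20 (SE 0.103, adjusted p = 0.202 with edgeR). Without control replicate 2 of both housings, left out together after seeing the data, it was 0.0708 with an adjusted p of 0.602. As these mice had the lowest Drd5 of their groups, leaving them out had to lower the value. Drd1, the other D1-like receptor, had an averaged log2 fold change of -0.19 (SE 0.104, adjusted p = 0.241 with edgeR), and its values in each housing are given with the housing comparisons.

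Within each housing alone, no receptor was called with edgeR. In SC, 0 of 9 receptors passed, against 5.52% of the 17532 genes tested, and 4 of 9 had an unadjusted p below 0.05 (Adra2a, Adra2c, Adra1d and Adra1b, all lower), against 20.5% of all genes. In EE, 0 of 9 passed, against 4.57% of 17625 genes, and 4 of 9 had an unadjusted p below 0.05 (Adra2c, Adrb1, Drd1 and Adra2a, all lower), against 19.6% of all genes. DESeq2 called 0 receptors in SC and 1 in EE, Adra2c (adjusted p = 0.00593). Among all genes it called 1300 of 17532 in SC and 1296 of 17625 in EE. The levels of 3 of 9 receptors were lower in CBP-ifKOs without overlap in SC (Drd2, Adra1b and Adra2a), against 13.8% of all genes, and those of 6 of 9 in EE (Drd1, Adrb1, Adra1b, Adra1d, Adra2a and Adra2c), against 13.9%.

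The smallest p-value within SC was that of Adra2a, with a log2 fold change of -0.40 (SE 0.120, adjusted p = 0.0815 with edgeR), and within EE that of Adra2c, with -0.47 (SE 0.125, adjusted p = 0.0592). Both lay close to the threshold, and the choice of fit decided their call. Adra2a in SC passed without the filter on low counts (adjusted p = 0.0306). Adra2c in EE passed in 6 of 15 alternatives, among them the fit on all 12 mice (adjusted p = 0.0408) and the fit without control replicate 2 (log2 fold change -0.57, adjusted p = 0.0251). Without control replicate 2 in SC, 2 receptors were called there, Adra2c (-0.42, adjusted p = 0.0205) and Adra1d (-0.27, adjusted p = 0.0210). That fit called 1908 of 17934 genes, against 968 of 17532 with all mice of SC. When any 1 mouse was left out, Adra2c in SC ranged from -0.42 to -0.16 and Adra1d from -0.27 to -0.14. Drd1 in EE, with a log2 fold change of -0.46 (SE 0.149, adjusted p = 0.112), did not pass in any of the 15 alternatives.

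**Figure D3:**
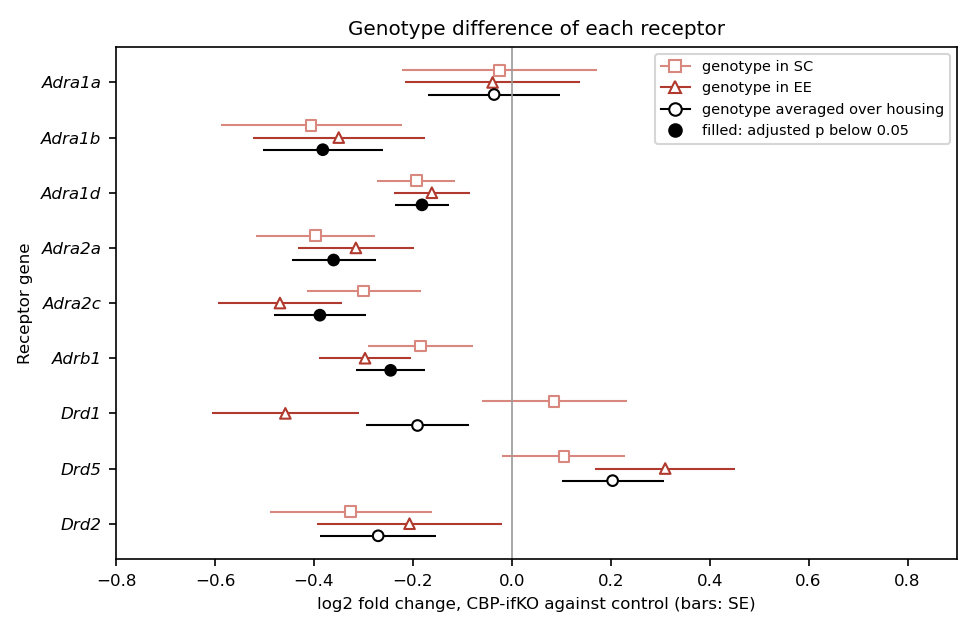
Log2 fold changes between CBP-ifKOs and controls in SC, in EE and averaged over housing for each receptor, with bars for the standard error and filled symbols for an adjusted p below 0.05. The 5 filled symbols belong to the averaged comparison of Adra1b, Adra1d, Adra2a, Adra2c and Adrb1, which lie between -0.39 and -0.18.

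Enrichment was not followed by a called change of any receptor. In control mice 0 of 9 were called, as were 0% of the 18251 genes, and in CBP-ifKOs 0 of 9, against 0.011%. Averaged over the genotypes 0 of 9 were called, against 0.164% of all genes, and the environment and interaction terms together called 0 of 9, against 0.0712%. DESeq2 likewise called 0 of 9 receptors in the first 3 of these comparisons, against 15, 54 and 158 of the 18251 genes. In the joint test, where it called 95 of these genes, it called 0 of the 6 receptors to which it gave an adjusted p-value. It gave none to Adra1a, Adra1b and Drd2, whose lowest unadjusted p was 0.925 (Drd2). At an unadjusted p below 0.05 no receptor passed with edgeR in these 4 comparisons, against 4.21%, 8.59%, 9.44% and 6.87% of all genes in the same order. The log2 fold changes between housings ranged from -0.10 for Adra2a to 0.28 for Drd1 in control mice and from -0.28 for Drd1 to 0.17 for Drd5 in CBP-ifKOs. Their standard errors lay between 0.0783 and 0.191 in control mice and between 0.0775 and 0.185 in CBP-ifKOs.

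Drd1 had the highest and the lowest of these values. The D1 receptor gene stood at 6.35, 5.89 and 5.44 CPM in SC controls and at 6.98, 7.30 and 7.13 CPM in EE controls. In CBP-ifKOs it stood at 6.93, 5.05 and 6.73 CPM in SC and at 6.10, 4.32 and 5.05 CPM in EE. All enriched controls lay above all SC controls, which was seen for no other receptor, and 9.11% of the genes tested had housings that did not overlap in control mice in either direction. In CBP-ifKOs the housings overlapped. The change with EE was 0.28 in control mice (SE 0.149, unadjusted p = 0.0829) and -0.28 in CBP-ifKOs (SE 0.146, unadjusted p = 0.0769), both on the log2 scale in the edgeR fit of 12 mice. When 1 mouse was left out, these changes ranged from 0.22 to 0.33 in control mice and from -0.42 to -0.16 in CBP-ifKOs. The interaction of genotype and environment was -0.55 (SE 0.209, unadjusted p = 0.0178), and after adjustment over all genes it did not pass (adjusted p = 0.9998). Without control replicate 2 of both housings, left out after seeing the data, it was -0.53 with an unadjusted p of 0.0503, and over the other 20 alternatives its unadjusted p lay between 0.00382 and 0.04999. Among the 9 receptors 0 were called for the interaction, as were 0% of all genes, with DESeq2 also calling 0 receptors, and Drd1 was the only 1 with an unadjusted p below 0.05, against 3.15% of all genes.

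**Figure D4:**
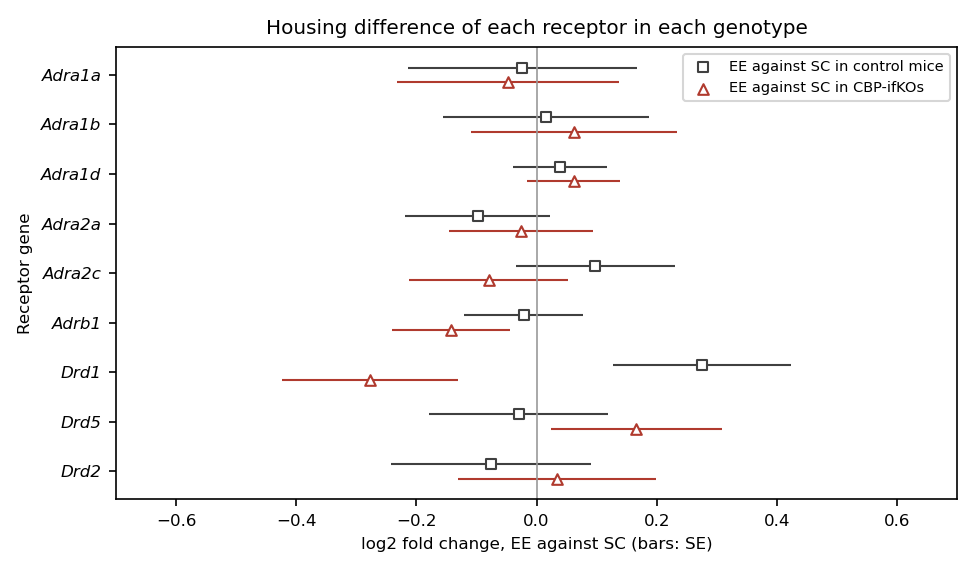
Log2 fold changes between EE and SC in control mice and in CBP-ifKOs for each receptor, with bars for the standard error. No value passed the adjusted test, and Drd1 shows the widest distance between the genotypes, 0.28 in controls and -0.28 in CBP-ifKOs.

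Among other catecholamine receptor genes, Drd3, Drd4 and Adra2b stayed under 0.4 CPM in every mouse and were removed by the filter. Drd3 was at 0 counts in 10 of the 12 mice, and a count of 0 allows up to 3 counts, or 0.0801 to 0.112 CPM, for counting error only. If each read of the CBP-ifKO libraries entered the table as a pair of counts, the limit there is 6 deposited counts, or 0.160 to 0.210 CPM. Adrb3, the β3 receptor, lay between 0.622 and 1.73 CPM. Its averaged log2 fold change of 0.50 (SE 0.204, adjusted p = 0.107 with edgeR) did not pass the test, and passed in 1 of 21 alternatives. Adrb3 shares 839 exonic bases with the opposite-strand gene Gm45470.

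Among the genes of catecholamine supply, Th and Dbh had few counts, whereas Ddc, also a gene of synthesis, lay between 4.35 and 7.39 CPM. Of the 10 listed genes of synthesis, transport and breakdown, 8 were tested, and averaged over housing 1 was higher and none was lower, against 16.9% of all genes called. Their median log2 fold change was -0.0163. Th, the rate-limiting enzyme of catecholamine synthesis, lay between 0.352 and 1.31 CPM, and Dbh, which makes noradrenaline from dopamine, between 0.138 and 0.801 CPM. The gene that rose was Slc6a3, the dopamine transporter. It had 3, 2 and 10 counts in SC controls, 16, 24 and 18 in SC CBP-ifKOs, 5, 7 and 6 in EE controls and 38, 24 and 26 in EE CBP-ifKOs. If each CBP-ifKO read entered the table as a pair of counts, these raw counts are not on 1 scale between genotypes. In CPM the genotypes did not overlap, and the averaged log2 fold change was 1.73 (SE 0.335, adjusted p = 0.00216 with edgeR). The levels lay between 0.0756 and 0.982 CPM, near the floor of 3 counts in the controls. Within EE it was 1.82 (adjusted p = 0.0185), or 1.70 without control replicate 1 (adjusted p = 0.0681), and within SC 1.65 (adjusted p = 0.110).

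Genes downstream of the receptors were read against the same background, 16.9% of all genes called and 10.3% called as lower. Of 10 G protein α subunit genes, averaged over housing, 4 were lower and 1 was higher, with a median of -0.0630. Gnaq, the Gq subunit used by α1 receptors, lay between 317 and 366 CPM in controls and between 272 and 301 CPM in CBP-ifKOs, without overlap, and changed by -0.23 on the log2 scale (SE 0.0426, adjusted p = 0.00160 with edgeR). Gnaz, a Gi-family subunit, fell by 0.21 (SE 0.0418, adjusted p = 0.00262), and Gnao1, the Go subunit, by 0.15 (SE 0.0388, adjusted p = 0.0128) on the log2 scale. These 3 were also called within EE alone, against 4.57% of all genes, and none of the 10 was called within SC, against 5.52%. Without control replicate 1 in EE, Gnaz (-0.23, adjusted p = 0.120) and Gnao1 (-0.23, adjusted p = 0.0752) were not called in EE. Gnal was called in SC without control replicate 2 (0.25, adjusted p = 0.00881). Outside the rule for naming genes, and named after their values were seen, Gna14, another Gq-family gene, was lower (-0.49, adjusted p = 0.0287), and Gnal, which encodes the Golf subunit of D1-like signaling, was higher (0.14, adjusted p = 0.0452). Neither was called without control replicate 1 in EE (adjusted p = 0.0657 for Gna14 and 0.108 for Gnal). Gnal shares exonic bases with Mppe1 and Gnao1 with 4930488L21Rik on the opposite strand. Gnas and the 3 Gnai genes were not called.

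Of 19 genes of cAMP and phospholipase C signaling, 5 were lower and none was higher, against 10.3% of all genes called as lower, with a median of -0.0677. Adcy5, an adenylyl cyclase known for striatal dopamine signaling, fell from between 129 and 144 CPM to between 101 and 121 CPM (log2 fold change -0.24, SE 0.0420, adjusted p = 0.00120 with edgeR) and was the only 1 of the 19 called within SC (-0.22, adjusted p = 0.0337), against 5.52% of all genes. That call was lost in 5 of 15 alternatives, without control replicate 3 (adjusted p = 0.115), without CBP-ifKO replicate 1, 2 or 3 (0.0962, 0.157 and 0.104) and with halved and thinned counts (0.0671). Ppp1r1b (-0.39, adjusted p = 0.0240) and Prkar1b (-0.17, adjusted p = 0.0212) were called in SC as well without control replicate 2. Ppp1r1b, which encodes the PKA and phosphatase regulator DARPP-32, lay between 25.4 and 40.2 CPM in controls and between 19.9 and 24.9 CPM in CBP-ifKOs. It changed by -0.43 on the log2 scale (SE 0.0828, adjusted p = 0.00210 with edgeR), and it shares 460 exonic bases with the opposite-strand gene 1700003D09Rik. Plcb2, a phospholipase C β, fell by 0.37 (adjusted p = 0.0146), and Adcy1, a calmodulin-stimulated cyclase, by 0.31 (adjusted p = 0.0160). The averaged change of Adcy1 ranged from -0.36 to -0.17 over the 21 alternatives, and its call held in all of them. Within EE, Ppp1r1b (-0.53, adjusted p = 0.0276) and Adcy1 (-0.45, adjusted p = 0.0285) were called, against 4.57% of all genes. The call of Ppp1r1b in EE was lost without control replicate 1 (-0.39, adjusted p = 0.0618) and that of Adcy1 without control replicate 2 (-0.34, adjusted p = 0.0516). The other called gene, Prkar1b (-0.12, adjusted p = 0.0249), was outside the naming rule and was not called without control replicate 1 in EE (adjusted p = 0.0531). The calls of Plcb2, Prkar1b, Gna14, Arrb1 and Gnal were lost in 2, 7, 9, 10 and 12 of 21 alternatives, and those within EE in 4 to 6 of the alternatives. Of 7 receptor kinases and arrestins, 1 was lower, Arrb1 with -0.13 (adjusted p = 0.0448), and none was higher, against the same 16.9% of all genes called. Arrb1 was not called without control replicate 2 in SC (adjusted p = 0.0908), in EE (0.0794) or in both (0.129), where Arrb2 was called instead (-0.15, -0.14 and -0.17), with Grk2 also called in the last case (-0.11).

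**Figure D5:**
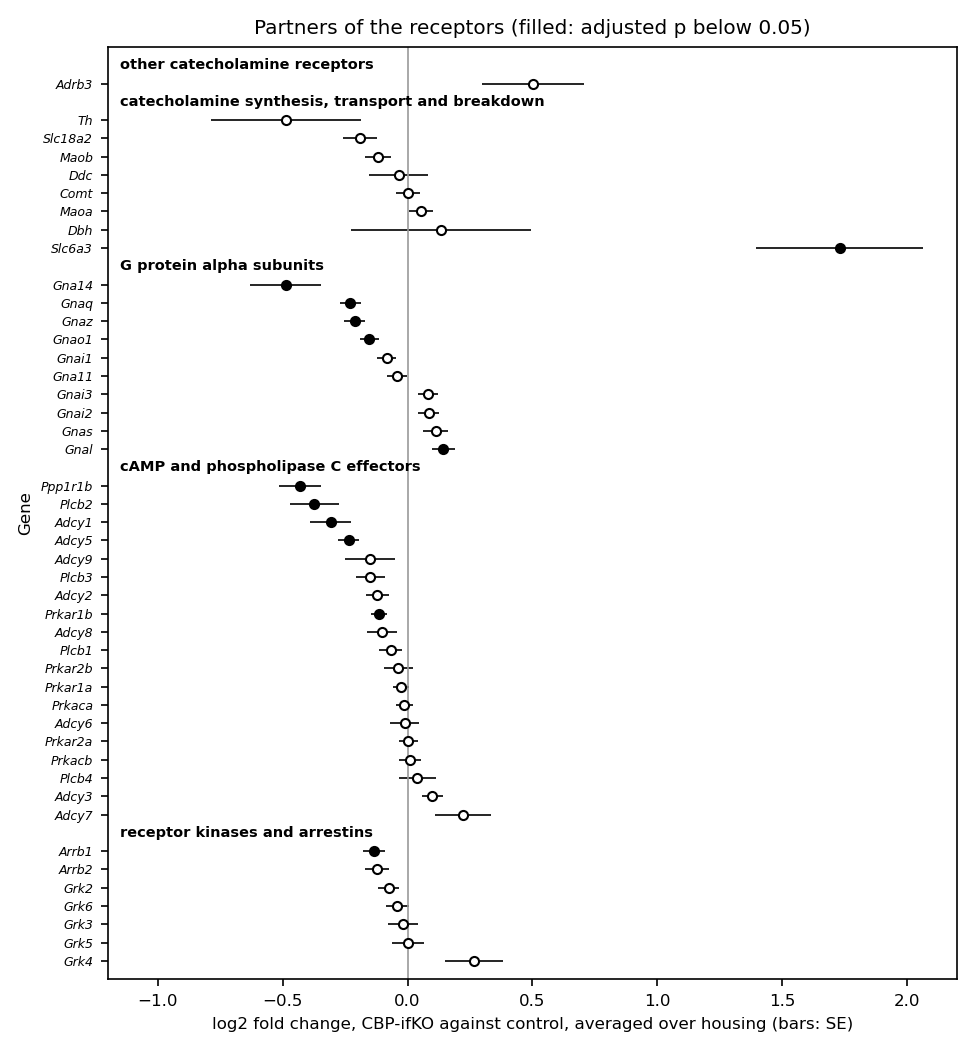
Log2 fold changes between CBP-ifKOs and controls, averaged over housing, of tested genes of 5 lists around the receptors, with bars for the standard error and filled points for an adjusted p below 0.05. Slc6a3 at 1.73 and Gnal at 0.14 are the only filled points to the right of 0, and the 10 to the left include Gnaq, Adcy5 and Ppp1r1b.

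Markers of hippocampal cell types also differed between genotypes, and their part in the receptor differences was not tested. Of all genes, 10.3% were called as lower in this averaged comparison. The summed level of 5 CA1 markers lay between 640 and 738 CPM in controls and between 474 and 523 CPM in CBP-ifKOs, with 3 of 5 lower. The 5 CA2 markers summed to between 184 and 204 CPM in controls and between 111 and 129 CPM in CBP-ifKOs (2 of 5 lower), and the 5 granule cell markers to between 276 and 342 CPM and between 217 and 268 CPM (3 lower, 1 higher). Of 5 CA3 markers 3 were lower, and of 3 mossy cell markers 2. General markers of excitatory neurons summed to between 2217 and 2715 CPM in controls and between 2117 and 2327 CPM in CBP-ifKOs, with 2 of 5 lower, Nrgn (-0.52) and Neurod6 (-0.17). Among cells that the transgene does not target, astrocyte markers summed to between 4112 and 4846 CPM in controls and between 3732 and 4222 CPM in CBP-ifKOs (2 of 6 lower), and interneuron markers to between 871 and 966 CPM and between 814 and 875 CPM (1 of 7 lower, Sst, and 1 higher, Vip). Of 5 microglial markers 2 were lower, and of 5 oligodendrocyte and 5 endothelial markers 0 were called. Among markers of neighboring tissue, 1 of 7 tested striatal markers was lower (Rasd2, -0.73), 1 of 5 thalamic markers was higher and 1 lower, and 1 of 6 choroid plexus markers was lower (Ttr). The striatal markers summed to between 89.1 and 113 CPM in controls and between 72.1 and 84.2 CPM in CBP-ifKOs. Rasd2 alone lay between 58.1 and 76.1 CPM in controls and between 31.9 and 48.0 CPM in CBP-ifKOs. The tissue these transcripts came from was not tested. None of the listed markers was at 0 in all mice. Several of these counts changed without the libraries that stand apart. Without control replicate 1 in EE, Ttr was not called (-0.61, adjusted p = 0.278), and 1 astrocyte marker, 1 microglial marker and 0 thalamic markers were lower. Without control replicate 2 of both housings, 4 microglial, 3 choroid plexus, 2 striatal and 1 endothelial marker were lower, with 2 CA3 markers, 1 mossy cell marker and 0 thalamic markers lower and Vip not called (0.15, adjusted p = 0.111). The counts for CA1, CA2, granule cells, excitatory neurons and oligodendrocytes were the same in these fits. Without control replicate 1 in EE, the library with the choroid plexus transcripts, 3 of the 5 receptor calls remained, those of Adra2a, Adra2c and Adra1d.

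For each of the 5 called receptors, the 3 genes with the most similar pattern over the 12 mice were found by the root mean square difference of mean-centered log2 CPM, where a smaller value means a closer pattern. For Adra2a they were Tspan9 (0.0842), Gm14286 (0.0980) and Dpysl5 (0.104), and for Adra2c they were Gabrd (0.0892), Cnih2 (0.0937) and Ptms (0.104). Around Adrb1 stood Itm2c (0.0750), Cited2 (0.0850) and Wbp11 (0.0858), and around Adra1b Pdgfc (0.0939), Cspg4 (0.116) and Fam160a1 (0.116). Those of Adra1d were the closest, with Idh3b (0.0391), Aldoa (0.0401) and Eif5a (0.0406), and Adra1d also varied least itself (0.123, against 0.256 for Adra2c). Both genotypes enter these patterns, so genes that differ between genotypes by a like amount have small values.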

How the data were processed

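RNA of the hippocampus of 12 mice was sequenced with a read length of 50 bp. Reads were trimmed by the authors (Trim Galore 0.6.4), aligned to mm10 (STAR 2.6.1), filtered on mapping quality and counted on exons. The deposited table holds unnormalized counts of each gene with the 2 runs of each mouse merged, beside gene lengths, used here for RPKM. A floor of 3 counts is 0.0801 to 0.112 CPM, for counting error only.

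Genes were filtered with edgeR's filterByExpr and tested with edgeR 4.0.16 (TMM, quasi-likelihood test, Benjamini-Hochberg) in R 4.3.3. Genotypes were compared in 6 mice within a housing. All other comparisons used 12 mice and 1 coefficient per group. The receptors and gene lists were chosen with earlier results of these data known. Besides the receptors, the text names up to 3 called genes per pathway list and genotype comparison, up to 2 per marker list, and the 3 genes most like each called receptor. Alternatives were DESeq2 1.42.0 as test or for size factors, other filters, thinned or halved counts, a replicate block, other sets of mice, a fold threshold for the joint test and leaving out mice. Procedures were tested on simulated data. Positions are from GENCODE M21, promoters from RefSeq (GRCm38.p6). Mice of a group are separate animals. 1 gene of the lists is not reported here.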

Additional observations from a re-analysis of the deposited data

How the results depend on the processing

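Counts of called receptors were computed again under 15 alternatives within a housing and under 21 or 22 otherwise, and counts for the comparisons of housing, the interaction and the joint test stayed at 0 in all of them, where the joint test with DESeq2 gave an adjusted p-value to 6 of the 9 receptors. Averaged over housing, 5 receptors were called in 7 of the 21 alternatives, 4 in 6, 3 in 5 and 2 in 3. There were 4 without the filter on low counts or with halved and thinned counts, and between 2 and 5 when 1 mouse was left out. The lowest count, 2, was reached without control replicate 3 in SC, control replicate 3 in EE or CBP-ifKO replicate 3 in EE, and Adra2a and Adra2c were the 2 left. Without control replicate 2 of both housings, chosen after seeing the data, 4 were called. Within SC the count of 0 became 1 without the filter and ranged from 0 to 2 when 1 mouse was left out. Within EE it became 1 (Adra2c) with DESeq2, without the filter, with all 12 mice in the fit and with halved and thinned counts, and ranged from 0 to 1 when 1 mouse was left out. With the CBP-ifKO counts halved alone, the counts were the same as with the deposited counts. The cause of these shifts was not tested. With a replicate block in the fit, edgeR called 1 receptor in SC (Adra2a, adjusted p = 0.0467) and 1 in EE (Adra2c, adjusted p = 0.0351), and 5 averaged over housing. Over pairs of groups, the correlations of same-numbered samples averaged between -0.00108 and 0.176, and those of differently numbered samples between -0.0880 and 0.000582. The widest distance was between the control groups of the 2 housings (0.176 against -0.0880). In 1, 3, 2 and 1 of 3 cases a sample correlated best with its own number. Whether the numbers mark a shared batch was not tested.

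Signs of values that were not called turned in a few settings. Adra1a in SC was 0.00872 with thinned counts and ranged from -0.14 to 0.17 when 1 mouse was left out, in EE from -0.17 to 0.0690, and averaged from -0.0985 to 0.0635, with 0.00493 without control replicate 2 of both housings. Drd1 in SC was -0.0126 with halved and thinned counts, and Drd5 in SC ranged from -0.0299 to 0.18. Adra1a, Adra1b and Drd2 had the fewest counts of the 9 receptors.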
